A study of Mus musculus with 3 samples.

Results

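The genes described here put peptides on the cell surface through MHC class I. They are the heavy chain genes H2-K1, H2-D1, H2-T23, H2-T22 and H2-Q7, the light chain gene B2m, the peptide-loading genes Tap1, Tap2 and Tapbp, and Nlrc5. They were selected on earlier results of these same arrays, by taking each non-control probe that the array design gives 1 of these 10 names. A probe of that name was found for 9 of the 10 genes, among 22214 genes measured in all, and Nlrc5 was not analysed here. The 9 genes had 16 probes on 43 spots per array, and all 16 were bright enough to be kept.

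Cells were sorted from bone marrow as negative for lineage antigens and positive for c-kit and Sca-1, a gate called multipotent progenitors in the labels. Mutant mice carried Mx1-Cre and Mef2c fl/fl alleles, and control mice carried Mef2c fl/fl alleles without Cre. Both groups received poly(I:C), a double-stranded RNA analog that activates the Mx1 promoter, on 4 days in a row, and marrow was taken 2 days after the last dose. Since only the mutants carried Cre, an effect of Cre and an effect of losing Mef2c cannot be told apart. Poly(I:C) itself induces interferon, so both groups had met a stimulus that is known to raise class I genes. Mx1-Cre recombines in any cell that answers to interferon, so it is not restricted to progenitors. For each sample, 15000 cells were sorted and their cDNA was amplified by PCR. Each of 3 arrays of 2 colours carried 1 mutant and 1 control library, 6 libraries in all. The labels put Cy3 on the mutant and Cy5 on the control throughout, so as labelled dye and genotype cannot be told apart. The labels do not say whether the libraries of a group came from separate mice, so the p-values below reflect variation among 3 arrays that may be technical.

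A class I molecule is a heavy chain paired with the invariant light chain, beta-2 microglobulin, and holding a short peptide. The peptides come from the proteasome, enter the endoplasmic reticulum through the transporter made of TAP1 and TAP2, and are loaded with the help of tapasin, the product of Tapbp. The classical heavy chains H2-K and H2-D show peptides to cytotoxic T cells, and nonclassical chains such as Qa-1, the product of H2-T23, are ligands for receptors on natural killer and other lymphocytes. NLRC5 is a transactivator of class I genes, and it acts through a conserved promoter module that holds an element like a cyclic AMP response element and a CCAAT box. Nuclear factor kappa B and interferon regulatory factors bind nearby enhancer elements.

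The promoters of 6 members are shown because the members differ in these elements, and their ratios can be set beside that difference. The sequences are from RefSeq (GRCm38.p6) and each is the 180 bases before the gene's start, printed 5′ to 3′ on the gene's own strand. Capitals mark GGGATTCCC (a kappa B element), AANNGAAA (an interferon regulatory factor element), TGACG (the core of a cyclic AMP response element) and CCAAT, each on either strand.
H2-K1, chr17:34000348-34000527, minus strand: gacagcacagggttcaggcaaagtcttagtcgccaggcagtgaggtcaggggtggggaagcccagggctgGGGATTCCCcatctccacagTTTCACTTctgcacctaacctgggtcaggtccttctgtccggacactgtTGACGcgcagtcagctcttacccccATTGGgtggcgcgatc
H2-D1, chr17:35262914-35263093, plus strand: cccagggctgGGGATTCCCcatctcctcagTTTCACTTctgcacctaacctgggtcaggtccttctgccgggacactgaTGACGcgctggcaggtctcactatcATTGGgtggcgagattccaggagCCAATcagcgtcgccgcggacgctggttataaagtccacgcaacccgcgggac
H2-Q7, chr17:35438975-35439154, plus strand: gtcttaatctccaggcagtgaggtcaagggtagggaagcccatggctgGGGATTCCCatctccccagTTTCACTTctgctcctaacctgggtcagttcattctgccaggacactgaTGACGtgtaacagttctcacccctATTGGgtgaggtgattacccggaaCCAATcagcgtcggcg
H2-T23, chr17:36032702-36032881, minus strand: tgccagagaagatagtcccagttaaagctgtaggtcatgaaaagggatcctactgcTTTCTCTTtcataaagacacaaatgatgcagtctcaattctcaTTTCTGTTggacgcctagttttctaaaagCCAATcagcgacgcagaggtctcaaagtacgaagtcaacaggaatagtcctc
B2m, chr2:122147507-122147686, plus strand: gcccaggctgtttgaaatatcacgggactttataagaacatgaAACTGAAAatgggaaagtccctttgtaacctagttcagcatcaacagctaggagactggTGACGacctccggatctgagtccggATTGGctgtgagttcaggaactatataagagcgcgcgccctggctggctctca
Tap1, chr17:34187376-34187555, plus strand: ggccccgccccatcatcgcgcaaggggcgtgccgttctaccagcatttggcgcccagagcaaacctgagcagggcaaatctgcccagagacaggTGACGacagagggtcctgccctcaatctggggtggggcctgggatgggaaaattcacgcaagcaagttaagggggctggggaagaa
The search covered a window of 250 bases before and 50 after the start for 8 members, Tap2 and Nlrc5 not being searched. GGGATTCCC was in the windows of H2-K1, H2-D1 and H2-Q7, and in 0.353% of 32817 promoters of that length. AANNGAAA was in those 3 and in H2-T23, H2-T22 and B2m, against 23.9% of all promoters. TGACG was in H2-K1, H2-D1, H2-T22, H2-Q7, B2m and Tap1 (20.8% of all), and CCAAT was in all 8 (37.4% of all). TGACG followed by CCAAT letters on either strand after 15 to 30 bases was found in H2-K1, H2-D1, H2-Q7 and B2m, with gaps of 20, 20, 19 and 20 bases, and in 1.09% of all promoters. That spacing was set after the sequences had been seen. Where the windows could be aligned, H2-K1 was identical to H2-D1 at 211 of 239 positions (88.3%) and to H2-Q7 at 219 of 253 (86.6%), so these matches are not independent. The aligned stretches of H2-Q7 and B2m were identical at 171 of 268 positions (63.8%), and those of Tap1 and Tapbp at 157 of 272 (57.7%). A match describes letters and does not show that a factor binds there.

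Mef2c, the targeted gene, was read first. Its brightest probe had log2 ratios of mutant over control of 0.08, 0.10 and -0.96 on arrays 1, 2 and 3, a mean of -0.26 ± 0.61 (SD, n = 3, limma adjusted p = 0.741). A second probe gave 1.07, 0.22 and 0.28. With array 2 as labelled, the loss of Mef2c was therefore not seen as a lower signal on arrays 1 and 2. No source used here places either probe relative to the floxed part, so the probes do not check the labels, and groups are named below as the libraries are labelled. The direction of array 2 is also unsettled. The authors' deposited log2 ratios correlated across spots with the scanner's Cy5 over Cy3 ratio at -0.948 on array 1, 0.935 on array 2 and -0.940 on array 3. The deposited column of array 2 thus ran opposite to the others although the labels give it the same dyes. Whether the dyes of array 2 were exchanged or only its deposited column was turned was not tested. With the dyes exchanged, the turned values would be those of mutant over control. Results are given as labelled, and the main means, the counts and the list medians are given again with the sign of array 2 turned. Turning array 2 changes the sign of the second of each 3 ratios printed and leaves the others as they are. Turned, the brightest Mef2c probe was -0.10 on array 2, with a mean of -0.33 ± 0.55 (SD, n = 3), and the second probe was also below 0 on that array. The share of probes detected well above background ran from 73.4% to 78.6% in the mutant channel and from 76.2% to 80.3% in the control channel, and no spot of a member was saturated.

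All 5 heavy chain genes had lower signals in the mutant libraries on each of the 3 arrays as labelled, and for each of them every mutant library lay below every control library. Of all genes, 20.3% were lower on all 3 arrays and 11.8% had every mutant library below every control library. The 5 genes were chosen with results of these arrays known, so nothing is read from this count. Averaged over the 5 genes, the log2 ratio was -0.71, -0.71 and -0.60 on the 3 arrays in turn. Their mean was -0.67 ± 0.06 (SD, n = 3), which is 0.627 of the control signal. None of the 5 passed the adjusted threshold of 0.05, and with array 2 turned the mean was -0.20 ± 0.79. In a sorted population, fewer cells that express a gene and less RNA per cell cannot be told apart.

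**Figure D1:**
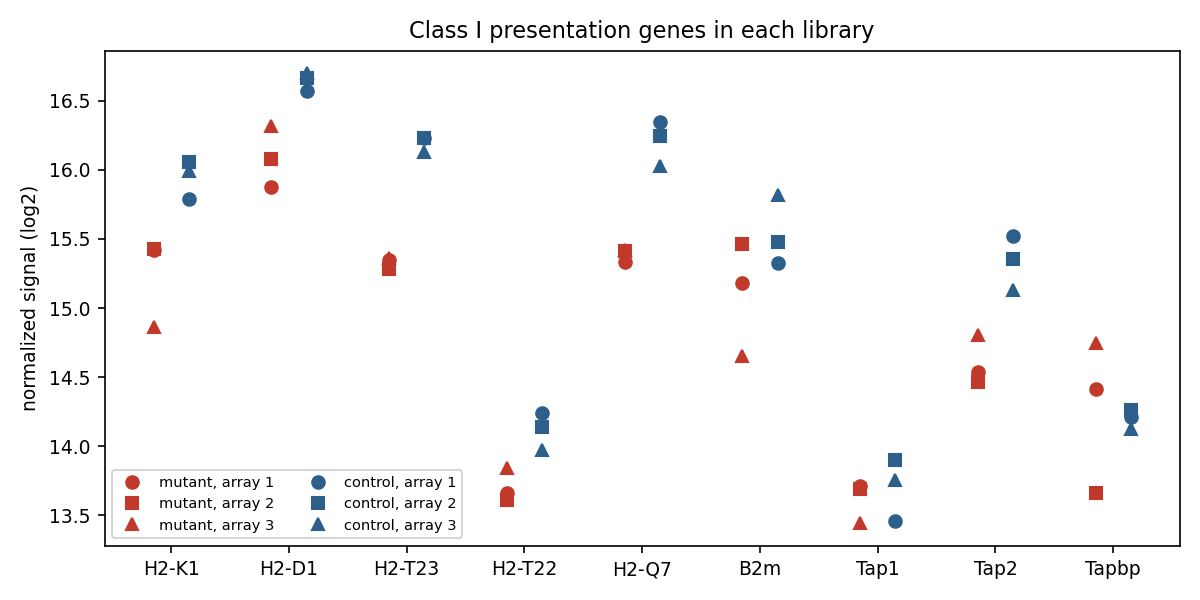
Normalized signal (log2, vertical axis) of each measured class I presentation gene in the 3 mutant libraries (red, left) and the 3 control libraries (blue, right), with 1 symbol per array. As labelled, the mutant libraries lie below all control libraries for the 5 heavy chain genes and Tap2, while the groups overlap for B2m, Tap1 and Tapbp. Of all genes, 11.8% had every mutant library below every control library.

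H2-T23, which encodes the nonclassical chain Qa-1, had normalized signals of 15.34, 15.28 and 15.36 (log2) in the mutant libraries of arrays 1, 2 and 3, against 16.23, 16.23 and 16.13 in the control libraries. The groups were tight and did not overlap, and the gap between them was several times the spread within either group. Its log2 ratios were -0.88, -0.95 and -0.77, a mean of -0.87 ± 0.09 (SD, n = 3) or 0.548 of the control signal. The unadjusted p was 0.0056 in limma's fit and the adjusted p was 0.461, and it ranked 555 from the lowest mean ratio among the 22214 genes as labelled and 4876 with array 2 turned. H2-Q7, which encodes the nonclassical chain Qa-2, gave 15.34, 15.41 and 15.42 in the mutant libraries and 16.35, 16.25 and 16.03 in the control libraries. Here too the groups lay apart, with the smallest gap on array 3. The log2 ratios of H2-Q7 were -1.01, -0.84 and -0.61, with a mean of -0.82 ± 0.20 (SD, n = 3, limma adjusted p = 0.461), or 0.566 of the control signal. This probe was printed on 10 spots, of which 7 to 9 were used per array, and the SD among spots was 0.03, 0.01 and 0.14 (log2) on arrays 1, 2 and 3. The spots show the error of spotting alone, not that between libraries.

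H2-K1, a classical heavy chain, had signals of 15.42, 15.43 and 14.86 in the mutant libraries and 15.79, 16.06 and 15.99 in the control libraries. The mutant library of array 3 was the lowest, and the ratios ran from -0.37 on array 1 through -0.63 on array 2 to -1.13 on array 3. The mean was -0.71 ± 0.39 (SD, n = 3, limma adjusted p = 0.468). Array 3 carried much of this: without it, the mean of arrays 1 and 2 was -0.50. The other 2 probes named H2-K1 were also lower in the mutant on every array. A second probe of the same cDNA clone gave -0.30, -0.43 and -0.28 (mean -0.34 ± 0.08), and a probe of another clone, on 10 spots, gave -0.90, -1.08 and -0.53 (mean -0.83 ± 0.28). The 3 probes of H2-K1 thus shared their sign on each array, while the brightest was lowest on array 3 and the other 2 on array 2.

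H2-D1, the other classical chain, had 15.88, 16.08 and 16.32 in the mutant libraries, against 16.57, 16.67 and 16.70 in the control libraries. The groups did not overlap, and the mutant libraries were the more scattered. The log2 ratios were -0.70, -0.59 and -0.38, with a mean of -0.55 ± 0.16 (SD, n = 3, limma adjusted p = 0.478). A second probe named H2-D1 was much dimmer in all 6 libraries, at 8.55 to 9.48 in the mutant and 8.55 to 9.17 in the control, and its ratios were 0.01, 0.30 and 0.35. It was the 1 heavy chain probe of 9 that was not lower on all 3 arrays. The array design lists 3 RefSeq transcripts for each of these H2-D1 probes and 2 for each H2-T22 probe, and which transcripts a probe bound was not tested.

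H2-T22, whose product is known as a ligand of some gamma-delta T cells, had 13.66, 13.61 and 13.85 in the mutant libraries and 14.24, 14.14 and 13.97 in the control libraries. Its gap nearly closed on array 3, where the ratio was -0.13, after -0.58 and -0.53 on arrays 1 and 2. The mean was -0.41 ± 0.25 (SD, n = 3, limma adjusted p = 0.531). A second probe ran the other way across arrays, with -0.14 on array 1, -0.65 on array 2 and -0.63 on array 3, and had a similar mean of -0.47 ± 0.29.

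Classical and nonclassical heavy chains differed by less than the spread between arrays. The mean log2 ratio was -0.70 ± 0.17 for H2-T23, H2-T22 and H2-Q7 and -0.63 ± 0.11 for H2-K1 and H2-D1 (SD, n = 3 arrays each). The difference of the 3 nonclassical genes minus the 2 classical ones was -0.30, -0.16 and 0.25 on arrays 1, 2 and 3, so it changed sign between arrays. Its mean of -0.07 ± 0.29 was smaller than its spread.

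**Figure D2:**
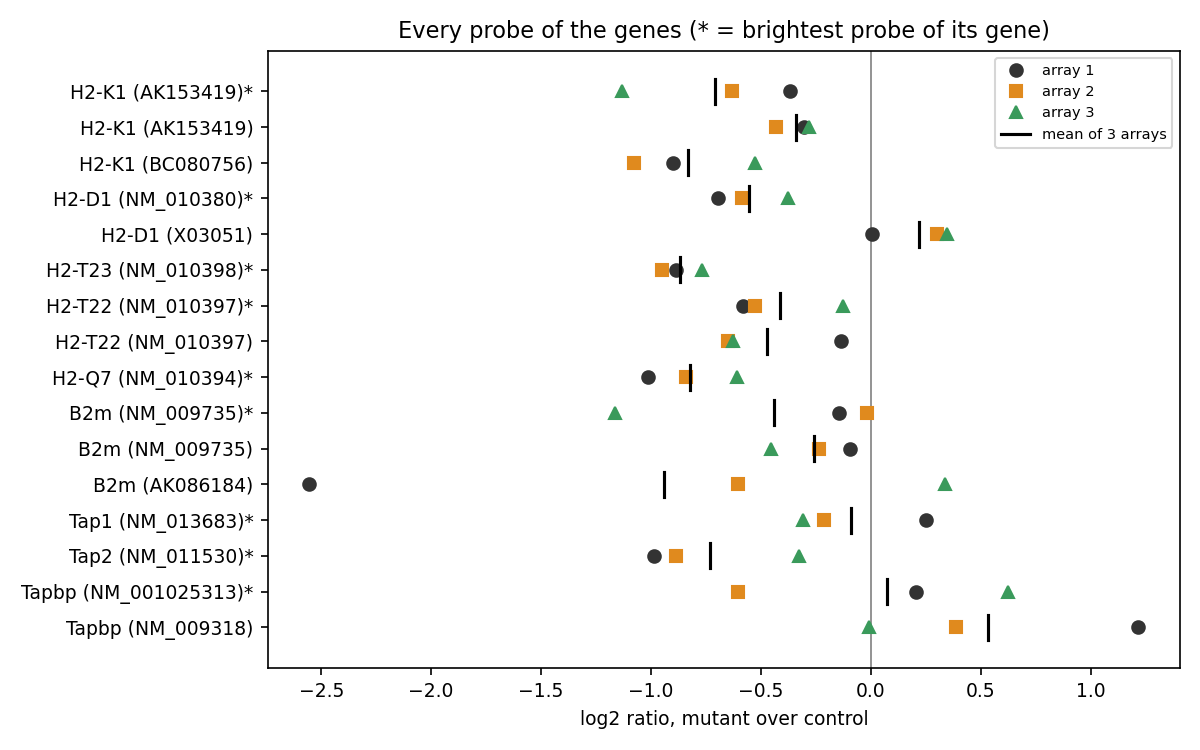
Log2 ratio of mutant over control (horizontal axis) for each of the 16 probes, with 1 symbol per array, a bar at the mean of the 3 arrays and a star on the brightest probe of each gene. As labelled, heavy chain probes lie left of 0 on every array apart from the dim second probe of H2-D1, while the probes of B2m and Tapbp scatter widely.

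B2m, the light chain that every class I molecule needs, did not separate the groups. Its brightest probe had 15.18, 15.46 and 14.65 in the mutant libraries and 15.33, 15.48 and 15.81 in the control libraries. The ratio was near 0 on arrays 1 and 2, at -0.15 and -0.02, and -1.16 on array 3. The mean was -0.44 ± 0.63 (SD, n = 3, limma adjusted p = 0.589), and without array 3 it was -0.08. A second probe of the same transcript, on 10 spots, gave -0.09, -0.24 and -0.45, a mean of -0.26 ± 0.18, with an SD among spots of 0.12, 0.03 and 0.10. The remaining probe, from a cDNA clone, gave -2.55, -0.60 and 0.34. The 3 probes of B2m thus lay farthest apart on array 1 and did not give 1 value for the gene.

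The transporter subunits Tap1 and Tap2 gave different pictures: the groups lay apart for Tap2 and overlapped for Tap1. For Tap2 the mutant libraries had 14.54, 14.47 and 14.80 and the control libraries 15.52, 15.35 and 15.13. These groups did not overlap, and the ratios of -0.98, -0.89 and -0.33 averaged -0.73 ± 0.35 (SD, n = 3, limma adjusted p = 0.463), or 0.602 of the control signal. With array 2 turned the mean of Tap2 was -0.14 ± 0.95. For Tap1 the mutant libraries had 13.71, 13.69 and 13.44 and the control libraries 13.46, 13.90 and 13.75. The groups of Tap1 overlapped, with ratios of 0.25, -0.21 and -0.31 and a mean of -0.09 ± 0.30 (SD, n = 3, limma adjusted p = 0.888). Tap2 minus Tap1 was -1.24, -0.67 and -0.02 on arrays 1, 2 and 3, so the gap between the subunits was absent on array 3, and its mean was -0.64 ± 0.61.

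Tapbp, which encodes the bridge between transporter and heavy chain, had 14.42, 13.66 and 14.75 in the mutant libraries and 14.21, 14.26 and 14.13 in the control libraries. The control libraries were tight and the mutant libraries lay on both sides of them. The ratios were 0.20, -0.60 and 0.62, with a mean of 0.08 ± 0.62 (SD, n = 3, limma adjusted p = 0.934). A second Tapbp probe gave 1.22, 0.39 and -0.01. The 2 probes shared no direction on arrays 2 and 3.

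Counted over the 9 genes, 7 were lower in the mutant on all 3 arrays, where 20.3% of all genes were. Every mutant library lay below every control library for 6 of the 9, against 11.8% of all genes. An unadjusted p under 0.05 with a lower signal was found for 5 of the 9, against 5.32% of all genes. At an adjusted p under 0.05, limma called 0 of the 9 and 0 of 22214 genes (0%), and 2251 genes had an unadjusted p under 0.05, 1069 higher and 1182 lower. With array 2 turned, 0 of the 9 were lower on all 3 arrays (9.46% of all genes), 1 was higher on all 3 (Tapbp, 10.7% of all genes), and 0 had every mutant library below every control library (3.87%). Turned, 0 of the 9 had an unadjusted p under 0.05 with a lower signal, against 1.39% of all genes. Nothing is read from these counts, because the members were selected with results of these arrays in view. The median ratio of all genes was -0.07, -0.05 and 0.004 on arrays 1, 2 and 3. For the 1111 genes in the brightest 5%, where several members lie, it was -0.01, -0.03 and -0.06.

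By the brightest probe of each gene, heavy chains and B2m differed on arrays 1 and 2 and in the opposite sense on array 3. The heavy chain mean minus B2m was -0.56, -0.69 and 0.56, a mean of -0.23 ± 0.69 (SD, n = 3). Leaving out array 3 gave -0.63 and leaving out array 2 gave -0.002, so the value rests on which array is used, and the spread does not allow a difference to be stated. With array 2 turned the mean was 0.23 ± 0.69. The comparison also rests on the B2m probe. As labelled, the 10-spot probe, at -0.09, -0.24 and -0.45, lay above the heavy chain means of -0.71, -0.71 and -0.60 on every array. The probe from a cDNA clone, at -2.55, -0.60 and 0.34, lay below the heavy chain mean on array 1 and above it on arrays 2 and 3. Against the peptide-loading genes the sign was the same on each array: the heavy chain mean minus the loading mean was -0.53, -0.14 and -0.60, a mean of -0.42 ± 0.25 (SD, n = 3). It was -0.33 ± 0.41 with array 2 turned, which is within its spread. The loading mean itself was -0.18, -0.57 and -0.005 by array, averaging -0.25 ± 0.29, and it was 0.13 ± 0.39 with array 2 turned. It hides the split between its members, since Tap2 alone was as low as the heavy chains.

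**Figure D3:**
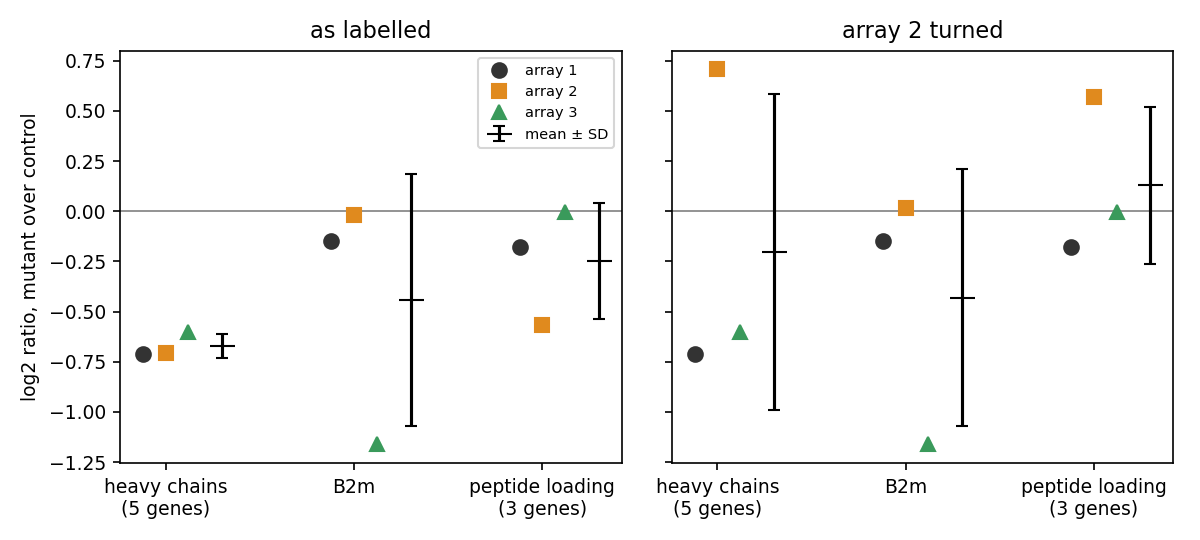
Log2 ratio of mutant over control (vertical axis) for the 5 heavy chain genes averaged per array, B2m, and the 3 peptide-loading genes averaged per array, as labelled (left panel) and with the sign of array 2 turned (right panel). Symbols are arrays and bars are the mean ± SD of 3 arrays. As labelled, the heavy chain arrays lie between -0.71 and -0.60, while turning array 2 widens their SD to 0.79.

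The direction of array 2 moved the heavy chain mean more than any other setting tried. Turned, the means were -0.29 for H2-K1, -0.16 for H2-D1, -0.23 for H2-T23, -0.06 for H2-T22 and -0.26 for H2-Q7, each with an SD of 0.56 to 1.03. On array 2 as labelled the heavy chain mean was -0.71, close to the -0.71 and -0.60 of the other arrays, and turned it was 0.71. Agreement in the members is no test of the direction, since the members were chosen with these ratios known.

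For the 4 genes whose promoters held the spaced TGACG and CCAAT pair, the means as labelled were -0.71 for H2-K1, -0.55 for H2-D1, -0.82 for H2-Q7 and -0.44 for B2m. For the searched genes without it they were -0.87 for H2-T23, -0.41 for H2-T22, -0.09 for Tap1 and 0.08 for Tapbp. No test was made of ratios against promoter letters.

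Markers of other cells also differed between the libraries of an array, most of all those of neutrophils. The 7 neutrophil markers, all measured, had median ratios of -3.65, 0.44 and -1.29 on arrays 1, 2 and 3, with 6 of 7 below 0 on average. Their summed level ran from 13.5 to 13.9 (log2) in the mutant libraries and from 13.7 to 16.5 in the control libraries, the highest being the control library of array 1. On those arrays the heavy chain mean was -0.71, -0.71 and -0.60, and it was -0.65 without array 1. With array 2 turned, the neutrophil median on that array was -0.44, where the heavy chain mean was 0.71. Erythroid markers (5 of 6 measured, 3 below 0) had a median ratio of -0.13 and summed to 13.0 to 14.2 in the mutant and 13.8 to 15.3 in the control libraries. The medians of the other lists were -0.14 for B cells (6 of 7 below 0), -0.33 for T and natural killer cells (7 of 8), -0.17 for dendritic cells (3 of 6), 0.24 for macrophages (1 of 6) and -0.28 for endothelium and stroma (4 of 5). The summed B cell level was 13.3 to 14.1 in the mutant libraries and 13.5 to 13.7 in the control libraries. The T and natural killer cell level was 14.98 to 15.39 in the mutant and 14.65 to 15.03 in the control libraries. That sum was mostly Nkg7, the brightest of the 8 and the only 1 above 0, averaging 14.87 in the mutant and 14.39 in the control libraries. The dendritic cell level was 14.98 to 15.60 in the mutant and 15.25 to 15.64 in the control libraries. Macrophage markers summed to 13.7 to 14.0 in the mutant and 13.5 to 13.6 in the control libraries, and markers of endothelium and stroma to 13.2 to 13.5 in the mutant and 13.5 to 13.6 in the control libraries. The 8 progenitor markers of the gate had a median ratio of -0.26 and summed to 15.9 to 16.2 in the mutant and 15.8 to 16.1 in the control libraries. Of 9 lineage markers 7 were measured, with a median of -0.22 and sums of 13.4 to 13.8 in the mutant and 13.9 to 14.2 in the control libraries. Of the 8 progenitor markers, 5 were below 0 and 3 above, while 12134 of all 22214 genes were below 0. The 2 antigens of the gate ran opposite ways on arrays 1 and 2. Kit, which encodes c-kit, gave -0.66, -0.64 and 0.22. Ly6a, which encodes the gate antigen Sca-1 and is itself induced by interferon, gave 0.93, 0.51 and 1.02. Turned, the value of Ly6a on array 2 was -0.51. In that direction, the median ratios over 3 arrays were -1.78 for neutrophils, 0.02 for erythroid cells, -0.08 for B cells, -0.22 for T and natural killer cells, 0.10 for dendritic cells, 0.16 for macrophages, -0.11 for endothelium and stroma, 0.03 for the progenitor markers and -0.26 for the lineage markers. The part of these cells in the class I ratios was not tested.

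Other genes of the pathway were taken from lists and are given by counts, with all lists having 0 genes past the adjusted threshold. Of 21 further class I heavy chain and class I-like genes, 15 were measured, 10 below 0 and 5 above, with a median ratio of -0.39 against -0.04 for all genes. In this list 6 genes were lower and 1 higher on all 3 arrays, against 20.3% and 15.2% of all genes. Its median was -0.15 with array 2 turned, with 2 lower and 1 higher on all 3 (9.46% and 10.7% of all genes). The lower ones with the largest means were H2-Q8 at -1.60, -0.26 and -1.08 (mean -0.98 ± 0.67) and H2-Q1 at -1.21, -1.21 and -0.46 (mean -0.96 ± 0.44). Hfe, which controls iron uptake and is built like a class I chain, was the exception at 2.43, 1.41 and 0.34 (mean 1.39 ± 1.04, limma adjusted p = 0.463). Class I genes of mice are close in sequence, and how far one probe reads the transcripts of several was not tested.

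Of the chaperones and peptide trimming genes of the endoplasmic reticulum all 6 were measured, with 5 above 0 and a median of 0.26, and none ran the same way on all 3 arrays. Canx, the chaperone calnexin that holds new heavy chains, gave 0.99, 1.59 and -0.15. Of 5 immunoproteasome genes, 4 were measured and none ran one way on all 3 arrays, with a median of 0.06. Of all genes, 20.3% were lower and 15.2% higher on all 3 arrays, so nothing is read from these counts in lists this short. Psmb8, a catalytic subunit induced by interferon, gave -0.34, -0.26 and 0.14, and Psmb9, another, gave -0.04, 0.02 and 0.28. Turning array 2 gave medians of -0.06 for the chaperones and 0.13 for the immunoproteasome genes. The difference of either list from the heavy chains was not tested.

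**Figure D4:**
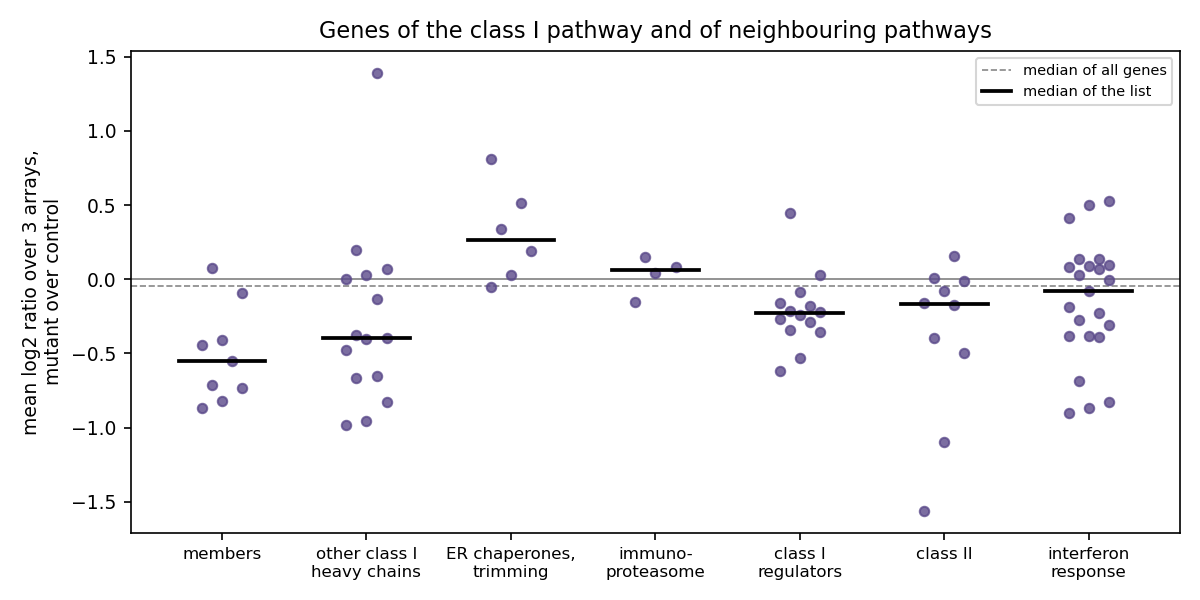
Mean log2 ratio of mutant over control across 3 arrays (vertical axis) for each measured gene of 7 lists, with a bar at each list's median and a dashed line at the median of all genes. The other class I heavy chains have a median of -0.39, the chaperones 0.26 and the interferon response genes -0.08, all with array 2 as labelled.

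Among 14 regulators of class I genes, all measured, 12 were below 0 and 2 above, with a median of -0.23. Of all 22214 genes, 12134 were below 0 and 10080 above. Irf2 gave -0.77, -0.20 and -0.89 (mean -0.62 ± 0.37, limma adjusted p = 0.479), and Irf1, an activator of class I promoters, gave -0.54, -0.14 and -0.92 (mean -0.53 ± 0.39, limma adjusted p = 0.501). These were the 2 of 14 regulators lower on all 3 arrays as labelled, where 20.3% of all genes were. Turned, the list median was -0.16, with 3 lower on all 3, against 9.46% of all genes. Class II genes were measured for 10 of 11, with 8 below 0 and a median of -0.17. Of the 10, 3 were lower on all 3 arrays, against 20.3% of all genes. H2-Ob, which encodes a chain of H2-O, which restrains the class II peptide editor H2-DM, gave -0.84, -1.93 and -1.91 (mean -1.56 ± 0.63, limma adjusted p = 0.461). Cd74, the invariant chain, gave -2.16, -0.68 and -0.44 (mean -1.10 ± 0.93), and Ciita, the class II transactivator, gave -0.01, -0.37 and -0.10. Turned likewise, 5 of the 10 class II genes were below 0 and 5 above, with a median of 0.01. In that direction 0 were lower on all 3 arrays, against 9.46% of all genes.

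Interferon response genes were spread around 0. Of 24 genes, 23 were measured, 13 below 0 and 10 above, with a median ratio of -0.08, and by array the medians were 0.06, -0.44 and 0.04. The heavy chain means on those arrays were -0.71, -0.71 and -0.60. Of the 23, 6 were lower on all 3 arrays and 1 was higher, against 20.3% and 15.2% of all genes. The higher one was Oasl1, at 0.87, 0.04 and 0.68. Turned on array 2, the list ran the other way, with 18 above 0 and 5 below and a median of 0.21. In that direction 8 were higher and 1 lower on all 3 arrays, against 10.7% and 9.46% of all genes. Mx2, an antiviral GTPase, gave -0.96, -1.17 and -0.58 (mean -0.90 ± 0.30, limma adjusted p = 0.461), Rsad2, the antiviral enzyme viperin, -1.09, -1.33 and -0.18 (mean -0.87 ± 0.61), and Iigp1, an immunity-related GTPase, -0.15, -1.56 and -0.78 (mean -0.83 ± 0.70).

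Among 70 genes of these lists, the signals of 6 libraries were compared with the mean profile of the members, each centred on its own mean, with array 2 as labelled. H2-Q2 was closest, at a root mean square distance of 0.08 (log2), followed by H2-Q5 at 0.11 and Ifit2 at 0.17. H2-Q2 had ratios of -0.55, -0.71 and -0.71 and H2-Q5 of -0.73, -0.77 and -0.49, while Ifit2, an interferon-induced gene, had -0.46, -0.09 and -0.61. The 6 libraries share their arrays and amplification, so this likeness is a description. Of the 9 members in the mean profile 5 are class I heavy chains, and whether the H2-Q2 and H2-Q5 probes read transcripts of the members was not tested.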

How the data were processed

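Per the file headers, the authors' scanner files were made with Agilent Feature Extraction 9.5.1.1 and give each spot's intensity (linear), a processed signal, and a log10 ratio, Cy5 over Cy3. All 3 arrays lay on 1 slide. The authors also deposited log2 ratios, for which the submitters' processing notes name limma. No source used here gives the normalization of these ratios. They served as an alternative, after the column that ran opposite to the others had been turned to the labelled direction. This alternative is therefore no separate check of that direction.

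Background was corrected by normexp (offset 50) and arrays were normalized by loess in limma 3.58.1 (R 4.3.3), with control spots at weight 0. Outlier spots were left out (300, 331 and 252 on arrays 1, 2 and 3). Library signals were scaled by Aquantile. A probe was kept where 1 channel was well above background on 2 or more arrays (32898 of 41174), and each gene was represented by its brightest probe, giving 22214 genes. Ratios were tested against 0 with lmFit and eBayes, with Benjamini-Hochberg adjustment over all genes. The procedure was run on simulated ratios with known changes added. That run required only that the estimated changes lie near those added, so it does not bear on how many genes were called here. The number of arrays limits the precision.

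Members and lists were chosen with earlier results of these data known. Text names all members, the 3 genes most like the members, and Mef2c. It also names up to 3 genes per pathway list with the largest mean ratio among those running one way on all 3 arrays. Canx, Psmb8, Psmb9, Oasl1, Nkg7, Kit and Ly6a fell outside that rule or were chosen after their values were seen. Alternatives changed the background, normalization, probe filter, probe choice, direction of array 2 and arrays included; the dimmest kept probe per gene was added after seeing the data.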

Additional observations from a re-analysis of the deposited data

How the results depend on the processing

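Over all settings 0 genes passed the adjusted threshold, while the number with an unadjusted p under 0.05 in limma ran from 644 with array 2 turned to 2872 with median centring in place of loess (551 higher and 2321 lower, against 1069 higher and 1182 lower as reported). Median centring moved the median of all genes to -0.18, and the heavy chain mean was -0.91 there, or -0.73 relative to that median, against -0.63 as reported. The heavy chain mean was -0.52 with the scanner's processed signals, -0.58 as the mean of all kept probes, -0.55 with the dimmest kept probe and -0.20 with array 2 turned, and -0.71 to -0.65 when 1 array was left out. All 5 heavy chain genes stayed below 0 in every setting except the dimmest probe, where 4 did and H2-D1 was 0.22. With array 2 turned, the loading mean was 0.13, heavy minus B2m 0.23 and Tap1 0.051. With the dimmest probe, heavy minus B2m was 0.38, and with all kept probes averaged it was -0.04. Tapbp was -0.048 with median centring. Leaving out 1 array gave -0.37 to -0.09 for the loading mean, -0.65 to -0.08 for B2m, -0.63 to -0.0021 for heavy minus B2m, -0.57 to -0.34 for heavy minus loading, -0.26 to 0.019 for Tap1 and -0.20 to 0.41 for Tapbp. The causes were not tested. No fit without the pairing was made, because each array's ratio already joins 1 mutant and 1 control library. All arrays shared 1 slide, so slide was no block.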
